A study of Mus musculus with 8 samples.

Results

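The genes described here are the 4 inhibitor of DNA binding genes of the mouse, Id1, Id2, Id3 and Id4, and the 3 E-protein genes, Tcf3 (whose products are E12 and E47), Tcf4 (E2-2) and Tcf12 (HEB). They were chosen by name, with earlier results of these data known. All 7 were found among 21887 annotated protein-coding genes of the autosomes and both sex chromosomes. A called peak was assigned to a gene when it overlapped the gene or the 1 kb on either side of it. In 6 libraries 19 peaks met that rule, 3 at 14 h and 16 at 34 h, and overlapping peaks merged into 10 regions.

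E proteins are basic helix-loop-helix transcription factors that pair with tissue factors such as MyoD and myogenin and bind the E-box, a short DNA element of many muscle genes. Id proteins have the helix-loop-helix but lack the basic region that contacts DNA, so that an E protein held by an Id protein cannot bind. In proliferating myoblasts Id proteins hold back muscle differentiation, and bone morphogenetic protein signalling through SMAD proteins is a known inducer of Id genes.

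The samples were C2C12 cells, an established mouse myoblast line, switched to medium with 2% horse serum to start differentiation. Chromatin was immunoprecipitated (IP) with rabbit polyclonal antibodies to APOBEC2, an orphan member of the AID/APOBEC deaminase family, in 3 libraries at 14 h and 3 at 34 h, with 1 input library at each time. Titles give 14 h for the early time and the growth protocol gives 24 h, so that time is uncertain. The names of all 6 peak lists carry the tag GFPsh, which the labels do not explain and which both times share. C2C12 is a single line, the labels do not say that replicates were separate cultures, and libraries that lack APOBEC2 or use a non-specific antibody were not analysed here. No expression was measured in these files, so the muscle identity of the cells and the level of the 7 genes' RNA were not checked.

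The lists differed in length, with 768, 1327 and 797 peaks at 14 h and 2209, 5025 and 1068 at 34 h. The median summit stood on 19 to 24 fragments, and no called summit stood on fewer than 10. A site that was not called is therefore not shown to be unbound. Throughout, fold is the authors' ratio, at a peak's summit, of IP fragments plus 1 to local background plus 1, used to describe and rank peaks within a list. Intervals for fragment numbers are exact Poisson at 95% and cover counting error only.

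The promoter windows of Id2 and Id3 are shown first because summits called at 34 h fell inside them. They are RefSeq sequences of GRCm38.p6, the assembly of mm10, from 250 bases before the annotated start to 50 after it, written 5′ to 3′ along the gene. Capitals mark the bases from 10 before the first called summit to 10 after the last. Id2 lies on the minus strand at chr12:25096043-25096342, and the capitals span the summits of all 3 libraries of 34 h. Id3 lies on the plus strand at chr4:136143572-136143871, and the capitals surround the summit of replicate 2 of 34 h. The RefSeq promoter windows covered 5 of the 7 genes, with 7 windows in all, and Id1 and Tcf4 had none. Tcf3 (minus strand, chr10:80433586-80433885) is shown with capitals on the 144 bases that lie under the peak of replicate 2 of 34 h, whose summit is outside the window.
Id2 promoter: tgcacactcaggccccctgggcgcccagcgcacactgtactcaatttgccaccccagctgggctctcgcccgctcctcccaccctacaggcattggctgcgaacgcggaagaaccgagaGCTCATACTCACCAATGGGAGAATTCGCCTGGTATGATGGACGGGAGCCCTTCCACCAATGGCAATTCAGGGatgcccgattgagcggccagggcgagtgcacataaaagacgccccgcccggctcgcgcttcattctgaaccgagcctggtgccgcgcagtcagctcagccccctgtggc
Id3 promoter: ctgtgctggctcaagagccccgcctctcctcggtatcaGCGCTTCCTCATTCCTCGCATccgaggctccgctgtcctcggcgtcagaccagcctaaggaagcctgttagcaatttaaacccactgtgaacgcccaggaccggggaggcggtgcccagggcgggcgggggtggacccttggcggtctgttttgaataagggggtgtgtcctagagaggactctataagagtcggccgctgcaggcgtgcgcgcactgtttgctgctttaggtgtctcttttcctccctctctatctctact
Tcf3 promoter: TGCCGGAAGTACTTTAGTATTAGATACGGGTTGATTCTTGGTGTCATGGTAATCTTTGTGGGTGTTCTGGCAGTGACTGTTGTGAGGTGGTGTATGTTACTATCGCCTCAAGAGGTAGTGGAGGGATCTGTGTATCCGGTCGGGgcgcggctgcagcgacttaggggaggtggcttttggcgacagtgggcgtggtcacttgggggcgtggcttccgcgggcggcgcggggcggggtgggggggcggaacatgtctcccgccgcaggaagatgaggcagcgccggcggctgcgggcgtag

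Id2, an Id gene active in many progenitor cells, had a peak over its start in every library of 34 h and in none of 14 h. Fold was 6.71 in replicate 1, 8.45 in replicate 2 and 7.36 in replicate 3, a mean of 7.51 ± 0.883 (SD, n = 3). The 3 peaks merged into 1 region (mm10 chr12:25096001-25096506) that overlaps the start of the gene (25093799 to 25096092). Summits stood on 20 fragments (12.2 to 30.9), 29 (19.4 to 41.6) and 24 (15.4 to 35.7), against a background of 2.13, 2.55 and 2.40 fragments. They lay 117, 121 and 70 bp before the start, a spread of 51 bp. By fold these peaks ranked in the upper 32.6%, 13.4% and 26.5% of their lists. In all 3 libraries of 14 h the nearest peak was at the ribonucleotide reductase gene Rrm2, 385 kb away from Id2. Of all protein-coding genes, 1.02% had a region of all 3 libraries of 34 h and no peak at 14 h. When each list was limited to the length of the shortest (768 peaks, by −log10 p), replicate 1 of 34 h no longer held the Id2 peak and replicates 2 and 3 did.

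A second site lay upstream of Id2, beyond the 1 kb limit and so outside the counts (chr12:25098562-25099037, no annotated gene). It too was called in every 34 h library and in no 14 h library. Its fold was 6.75 in replicate 1, 7.98 in replicate 2 and 5.95 in replicate 3 (mean 6.89 ± 1.02). Replicate 1 had another peak in it, of fold 4.74 on 10 fragments. The summits were 2.63 to 2.83 kb before the start. Within 5 kb of a gene, 4 of 21887 protein-coding genes had 2 or more merged regions called in every 34 h library and in no 14 h library, and Id2 was one of them. This count was made after the values of Id2 had been seen.

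Id1, whose product was the founding member of the family, was the member with the most peaks at 14 h. Replicate 1 of 14 h had none, replicate 2 had one of fold 6.42 and replicate 3 one of fold 6.44. At 34 h only replicate 2 had a peak, of fold 4.31, and replicates 1 and 3 had none. The 3 peaks formed 1 region (chr2:152736073-152736457) across the lower boundary of the gene (152736251 to 152737410), and the summits lay 54, 32 and 65 bp from that boundary. They stood on 17 fragments (9.90 to 27.2), 13 (6.92 to 22.2) and 19 (11.4 to 29.7). Replicate 2 of 34 h had the most fragments and the lowest fold, since its background was 3.64 fragments against 1.80 and 1.17 at 14 h. All 3 peaks were among the weaker ones of their lists, at 69.6%, 77.4% and 89.4% of the way down by fold. In the 3 libraries without an Id1 peak the nearest peak was at Tpx2, a spindle assembly gene about 110 kb away (110.5, 110.4 and 110.5 kb).

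Id3 had 1 peak, in replicate 2 of 34 h, of fold 4.53 on 17 fragments (9.90 to 27.2) and 86.0% of the way down that list (chr4:136143492-136143777). Its summit lay 202 bp before the start of the gene (136143822 to 136145392). The other 5 libraries had no peak in the gene or within 1 kb of it, and at 14 h the nearest were 288, 26.9 and 140 kb away. A site farther upstream, outside the counts, was called in every 34 h library and in no 14 h library (chr4:136140364-136140752), inside the long non-coding RNA gene Gm42329. Its fold was 4.82, 6.72 and 6.05 in replicates 1 to 3 (mean 5.86 ± 0.967), and its summits lay within 46 bp of each other, 3.32 to 3.36 kb before the Id3 start. Id2 and Id3 were thus the members with a site of this kind upstream of their 1 kb window. Of all protein-coding genes, 1.16% held a region called in every 34 h library and in no 14 h library, inside the gene or within 5 kb.

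Id4 (chr13:48261116-48266028), the Id gene known best from neural and mammary cells, had no peak in any of the 6 libraries. The nearest peak was 280 kb away in replicate 2 of both times, and more than 1000 kb away in the other 4 (from 1087 kb in replicate 1 to 1387 kb in replicate 3 of 34 h).

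Tcf3, the E-protein gene needed for early B-cell development and a partner of MyoD, had the highest fold of the members in replicate 2 of 34 h. In replicates 1 and 3 of 34 h Tcf3 stood below Id2 (6.71 and 7.36). At 14 h replicate 2 had a peak of fold 4.99 and replicates 1 and 3 had none. At 34 h fold was 6.39 in replicate 1, 9.71 in replicate 2 and 6.36 in replicate 3 (mean 7.49 ± 1.92). The peaks formed 1 region (chr10:80433742-80434246) over the upper boundary of the gene (80409541 to 80433976), which is its start, since Tcf3 lies on the minus strand. Summits stood on 16 fragments (9.15 to 26.0) at 14 h and on 27 (17.8 to 39.3), 44 (32.0 to 59.1) and 22 (13.8 to 33.3) at 34 h. They lay 122 bp outside the boundary at 14 h and 73, 127 and 154 bp outside it at 34 h, a spread of 81 bp over both times. The promoter window in the RefSeq table follows a start further inside the gene, at 80433635, and none of the summits fell in it. With lists limited to 768 peaks, Tcf3 kept its peak in all 3 libraries of 34 h and lost the one of 14 h.

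Tcf12, the E-protein gene whose product HEB pairs with MyoD and myogenin in muscle, had peaks deep inside the gene and none at an annotated start. At 34 h a region of replicates 1 and 2 (chr9:71874636-71875110) had folds of 7.35 and 6.49 on 25 fragments (16.2 to 36.9) and 35 (24.4 to 48.7). Replicate 3 and all libraries of 14 h had no peak in Tcf12, the nearest being 163 kb to 327 kb away. The summits were 28 bp apart and about 21.1 kb downstream of the nearest of 3 annotated starts (21.1 and 21.2 kb). Replicate 2 had a further peak of fold 5.37 (chr9:71941692-71941878), 45.7 kb upstream of that start. Tcf12 spans 268 kb (71844252 to 72111893).

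Tcf4, the E-protein gene most expressed in brain and plasmacytoid dendritic cells, spans 345 kb (chr18:69343429-69687967) and had peaks in replicates 1 and 2 of 34 h alone. Replicate 1 had 2 peaks, of fold 5.17 and 5.13. Replicate 2 had 3, of fold 4.59, 5.50 and 4.53. One region was shared by both (chr18:69469353-69469908), where the summits were 265 bp apart, and it was no longer called when summits had to lie within 100 bp. The other 3 peaks were single ones at 1.08, 67.0 and 250 kb from the lower boundary of the gene. All 5 summits stood on 11 to 32 fragments, and each peak ranked below the middle of its list by fold, between 54.9% and 85.4% of the way down. Background at the shared region in replicate 2 was 5.00 fragments, against a median of 2.73 over the peaks of that list.

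**Figure D1:**
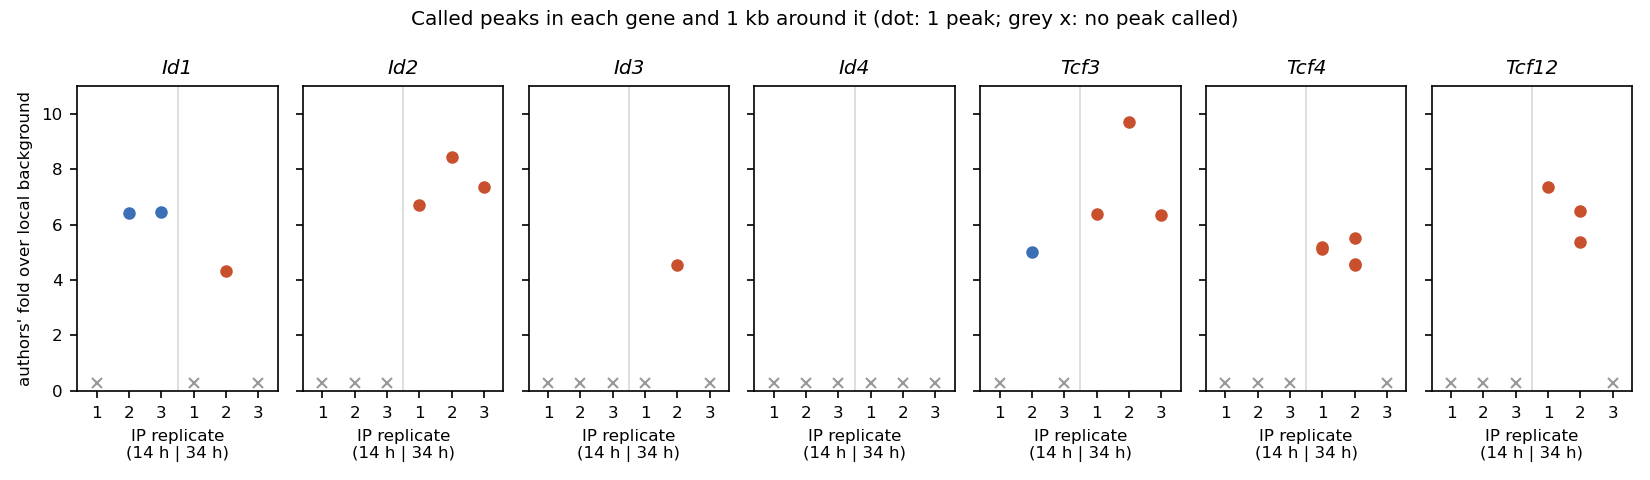
Authors' fold over local background (y axis) of each peak called in a member gene or within 1 kb of it, for IP replicates 1 to 3 at 14 h (blue, left of the line) and at 34 h (red, right of it). A grey x near 0 marks a library with no called peak and is not a value; Id2 and Tcf3 have a dot in all 3 libraries of 34 h, Id1 in 2 of 14 h, and Id4 in none.

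**Figure D2:**
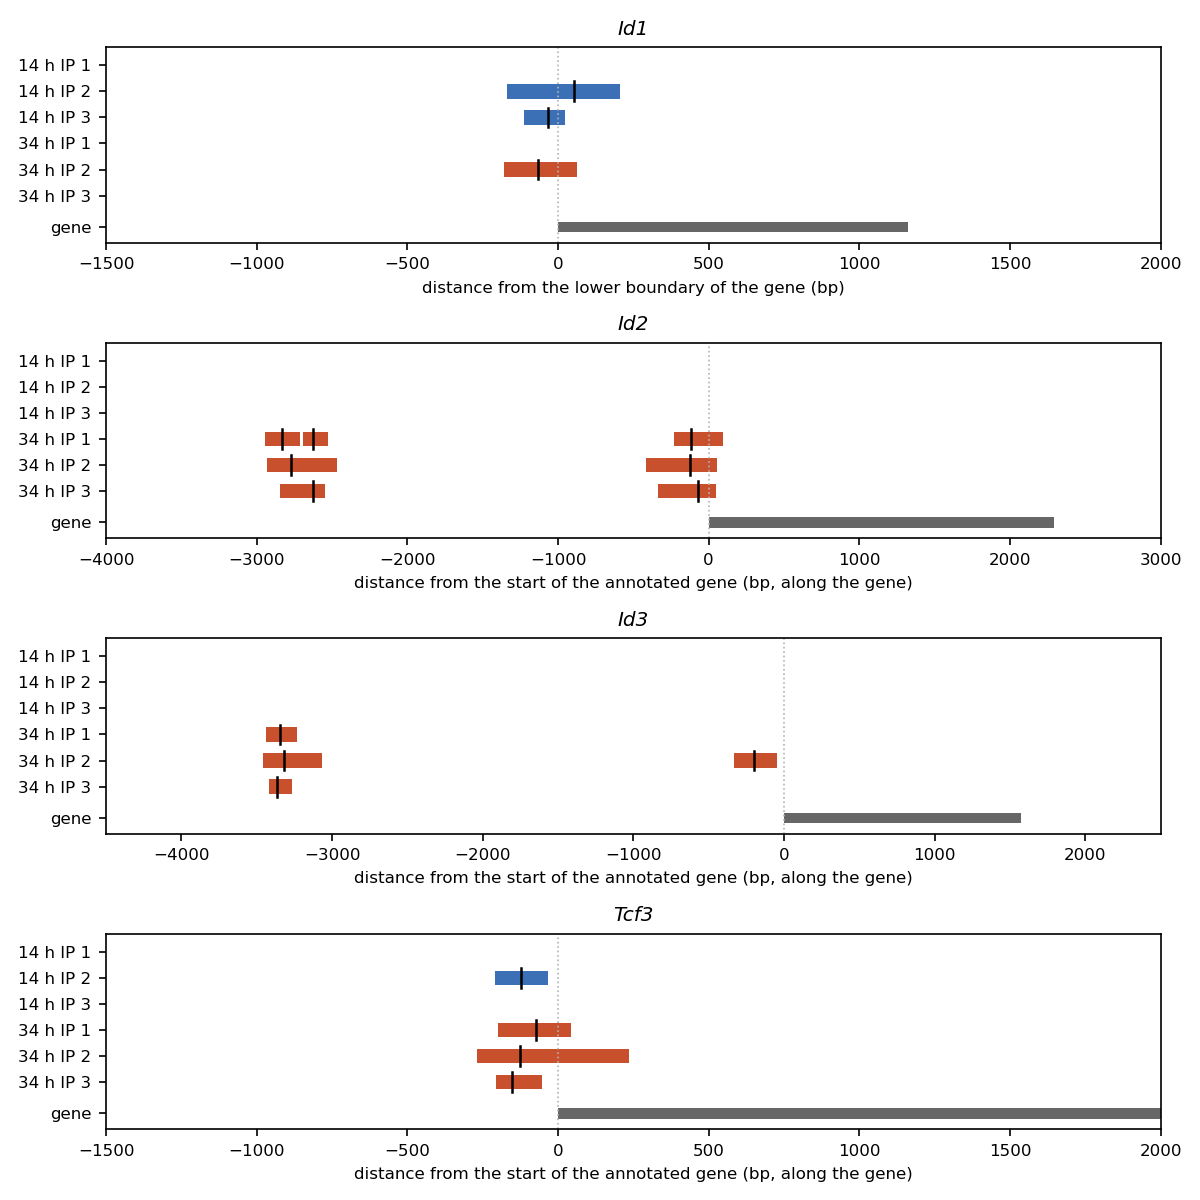
Called peaks (bars; 14 h blue, 34 h red) and their summits (black ticks) by library, in bp from the start of Id2, Id3 and Tcf3 along the gene and from the lower boundary of Id1; the grey bar is the annotated gene. Id2 has a site at the start and one 2.63 to 2.83 kb upstream, both in every library of 34 h, and Id3 has one 3.32 to 3.36 kb upstream in the same 3 libraries.

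**Figure D3:**
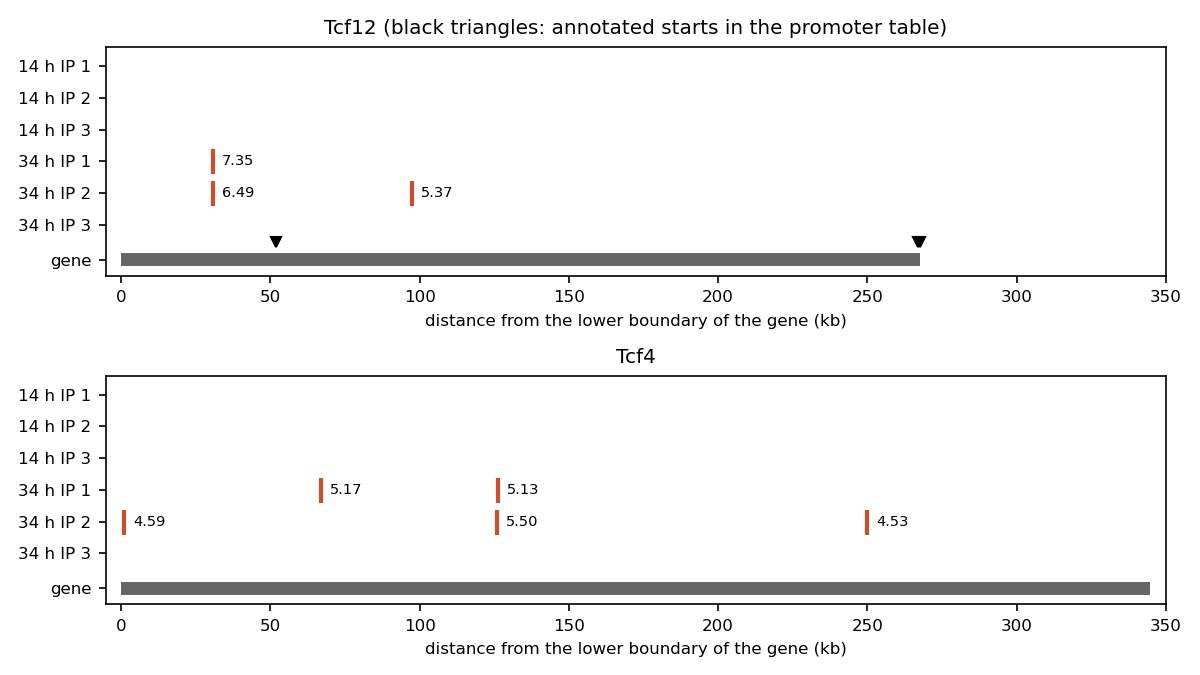
Summits of called peaks (red ticks, with the authors' fold beside each) along Tcf12 and Tcf4 for the 6 libraries, in kb from the lower boundary of the gene (grey bar). The shared regions lie 30.7 kb into Tcf12 and 126 kb into Tcf4, in replicates 1 and 2 of 34 h.

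Replicate 2 of 34 h was the one library with peaks at 6 members, which allows their order within 1 list. By highest fold it was Tcf3 (9.71), Id2 (8.45), Tcf12 (6.49), Tcf4 (5.50), Id3 (4.53) and Id1 (4.31). By fragments at the summit it was Tcf3 (44), Tcf12 (35), Tcf4 (32), Id2 (29), Id1 (19) and Id3 (17), so Id2 stood higher by fold than by fragments. Every neighbour in the second order had overlapping Poisson intervals, as had Tcf3 and Id2 (32.0 to 59.1 and 19.4 to 41.6). The interval of Tcf3 did not overlap those of Id1 (11.4 to 29.7) and Id3 (9.90 to 27.2). The order by highest fold was not the same in the other lists of 34 h. In replicate 1 it was Tcf12 (7.35), Id2 (6.71), Tcf3 (6.39) and Tcf4 (5.17). In replicate 3 it was Id2 (7.36) and Tcf3 (6.36).

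The question of time was put to the number of members with a peak in each library. It was 0, 2 and 1 of 7 in replicates 1 to 3 of 14 h and 4, 6 and 2 in those of 34 h. The early mean was 1.00 ± 1.00 and the late mean 4.00 ± 2.00 (SD over 3 libraries), and the groups met at 2. The difference was 3.00 members (two-sided exact permutation, p = 0.2). With 3 libraries against 3 this test cannot go below 0.1, so it cannot decide the question. The number of peaks in members was 0, 2 and 1 at 14 h and 5, 9 and 2 at 34 h, a difference of 4.33 (two-sided exact permutation, p = 0.2). The share of all protein-coding genes with a peak moved with it: 3.72, 6.50 and 3.97% at 14 h and 9.24, 18.1 and 4.70% at 34 h. Within each time the library with the most peaks in all also held the most members. The part of list length in the difference was not tested beyond the following count. In lists limited to 768 peaks the members numbered 0, 0 and 1 at 14 h and 2 in each library of 34 h (two-sided exact permutation, p = 0.1, the smallest possible). Those at 34 h were Tcf3 in every library, Id2 in replicates 2 and 3, and Tcf12 in replicate 1. The share of all genes with a peak in each shortened list was not counted, so these counts have no like background here. By the stricter rule of a region in at least 2 libraries, members numbered 0 at 14 h and 2 at 34 h (Id2 and Tcf3). By that rule the shortened lists gave 3.76% of all protein-coding genes at 14 h and 3.16% at 34 h.

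**Figure D4:**
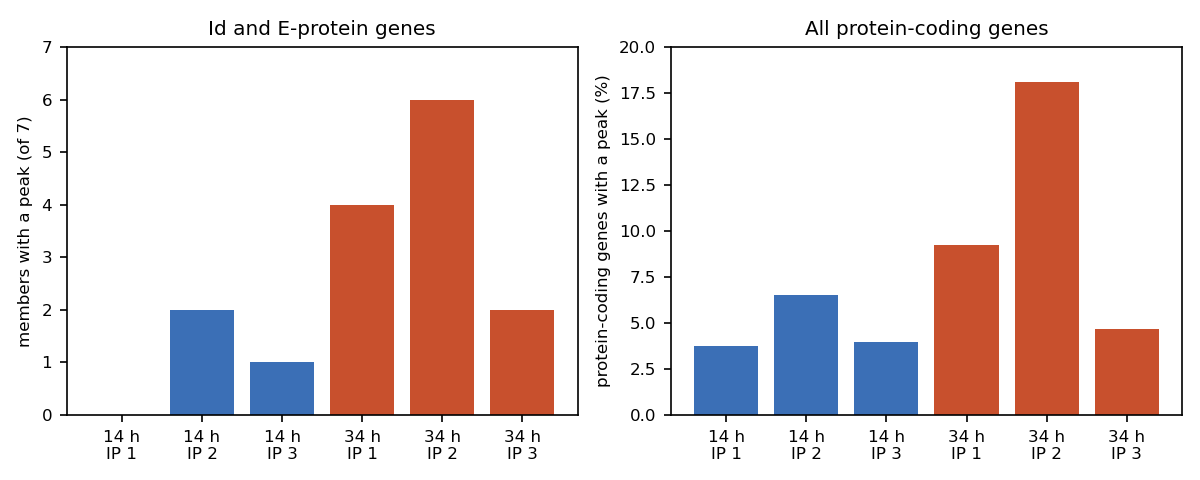
Number of the 7 members with a called peak (left) and share of all protein-coding genes with one (right, in %), for each IP library at 14 h (blue) and 34 h (red). Members number 0, 2 and 1 at 14 h and 4, 6 and 2 at 34 h, and the share of all genes is highest, at 18.1%, in the library that holds 6 members.

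Counting only regions shared by 2 or more libraries within a time, Id1 was the one member at 14 h (1 of 7), where 4.27% of all protein-coding genes had such a region. At 34 h it was 4 of 7 (Id2, Tcf3, Tcf4 and Tcf12) against 8.79%. A peak in any library was present in 2 of 7 members at 14 h against 6.96% of genes, and in 6 of 7 at 34 h against 19.1%. No member had a region of 2 libraries at both times. Shares of all genes were 4.27% at 14 h and 8.79% at 34 h, and the share at both times was not counted. The absence is therefore not read as a trait of the members. Gene length differs widely among members, and longer genes have more room for a peak. At 34 h 12.1% of genes of at least 100 kb had a region, a class that holds Tcf4 and Tcf12, and 3.46% of genes of at most 5 kb, a class that holds the 4 Id genes. Within 1 kb of a gene's start or end, 2 of 7 members (Id2 and Tcf3) had a region at 34 h, against 7.29% of all genes. The 34 h count was 2 without replicate 1 and 2 without replicate 2, in both cases Id2 and Tcf3, where the share of all genes was 4.48% and 3.92%. The 14 h count was 0 without replicate 2 or without replicate 3, where that share was 2.98% and 3.46%.

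Letters of the promoter windows were searched on both strands, with positions counted from the annotated start as 0. The CCAAT box, the element bound by NF-Y, occurred 3 times in the Id2 window, at -159, -120 and -76. The last pair lay within the capitals printed for Id2. Of 32851 promoter windows, 37.4% held CCAAT and 3.37% held it at least 3 times. Id4, without a peak, held it 2 times, Id3 and Tcf3 had none, and of the Tcf12 windows the one at its innermost start had 2. The E-box letters CANNTG occurred once in Id2 (-196, as CAGCTG) and once in Tcf3, and not in Id3 or Id4, against 72.3% of all windows. The Tcf12 windows at 72111819, 72111201 and 71896096 held it 1, 2 and 1 times. The GC box GGGCGG, bound by SP and KLF factors, occurred once in Id2, 2 times in Id3 (at -94 and -90, overlapping), 3 times in Tcf3 and 5 times in Id4 (35.7% of windows). In the same order the Tcf12 windows held it 4, 2 and 0 times. GGCGCC, a GC-rich motif bound by SMAD1 and SMAD5, occurred once each in Id2 and Id4 (11.9% of windows). CAGAC, the SMAD3 and SMAD4 element, occurred 2 times in Id3 and once in the Tcf12 window at 72111201 (49.6% of windows). TTTGAA, a letter form of the cell cycle homology region of mitotic genes, occurred once, in Id3 (17.9%). The E2F letters TTCCCGC and TTGGCGC (4.60% and 2.45% of windows) and the cyclic AMP response element TGACGTCA (1.79%) occurred in none of the members' windows. GC content was 63.3% in Id2, 60.0% in Id3, 61.7% in Tcf3 and 73.3% in Id4, against a median of 52.7% over all windows. The Tcf12 windows at 72111819, 72111201 and 71896096 had 71.7%, 75.7% and 36.3%, the last below that median.

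The other genes of the circuit were taken from 8 lists of partners, targets and regulators, 72 genes in all. At 14 h 2 of 72 had a region of at least 2 libraries (2.78%), and at 34 h 6 of 72 (8.33%), beside 4.27% and 8.79% of all genes, and 53 had no peak in any library. The 4 myogenic factor genes Myod1, Myf5, Myf6 and Myog had no peak in any library. Nor had the genes of 18 other factors that pair with or oppose E proteins, Twist1 and Msc among them. Of all genes, 6.96% had a peak in any library at 14 h and 19.1% at 34 h. The share of all genes with no peak at either time was not counted, so the absences here have no like background. With windows of 5 kb, a gene among the 18 had a region of 2 libraries at both times. At that window 4.96% of all genes had such a region at 14 h and 10.0% at 34 h, and the share at both was not counted. Of 7 Hes, Hey and Bhlhe repressor genes, Hes1, a Notch effector, had a region in all 3 libraries of 34 h, with folds of 8.15, 12.1 and 7.68. Of 4 other E-box repressor genes, Snai1 had one in replicates 2 and 3 of 34 h, with folds of 5.85 and 5.64. Of 6 E-protein cofactor genes, Kat2b, an acetyltransferase of MyoD, had one in replicates 1 and 2 of 34 h, with folds of 6.39 and 4.78. The MEF2 genes, Mef2a to Mef2d, cofactors of the myogenic factors, had no peak in any library.

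Genes for proteins bound by or acting on Id proteins numbered 10. Regions of at least 2 libraries lay at 2 of them at 14 h and 3 at 34 h, beside 4.27% and 8.79% of all genes. Rbl1, the p107 pocket protein gene, had one in all 6 libraries, with folds of 11.3, 14.8 and 10.6 at 14 h and 6.74, 10.4 and 5.04 at 34 h. Rbl2 (p130) had one in replicates 2 and 3 of 14 h, with folds of 6.17 and 6.02. Rb1, whose product is bound by Id2, had one in replicates 1 and 2 of 34 h, with folds of 6.87 and 5.80. Usp1, a deubiquitinase that stabilises Id proteins, had a peak in replicate 2 of 14 h (fold 8.17) and in all 3 libraries of 34 h (highest folds 5.82, 9.12 and 4.24, over 2 neighbouring regions). The 17 genes of the BMP and SMAD route had no region of 2 libraries at either time. At 34 h 6 of the 17 had a peak in 1 library each, beside 19.1% of all genes with a peak in any library: Bmp6, Bmpr1a, Smad5 and Smad7 in replicate 2, and Smad1 and Smad6 in replicate 1. Without replicate 2 of 34 h the count of 6 of 72 became 3 (Hes1, Rbl1 and Usp1; 3.92% of all genes), and with lists of 768 peaks it became 1 (Hes1; 3.16% of all genes).

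Genes most like a member were those with a peak in exactly the same libraries and the smallest root mean square difference of log2 fold. For Id2 these were Atf7ip (0.0249), Esyt1 (0.0655) and Ino80b (0.0726), out of 226 genes with the same 3 libraries. For Id1 they were Rel (0.0497), Rnaseh2a (0.0529) and Ddost (0.0989), out of 40 genes. For Tcf3 they were Tmem167 and Xrcc4, which share a region (0.161 each), and Cep290 (0.182), out of 54 genes over 4 libraries. For Tcf4 and Tcf12, present in the same 2 libraries, 672 genes shared the pattern. The nearest were Fkbp14 with Plekha8 (0.00808 each) and Cemip2 (0.0140) for Tcf4, and Bod1l (0.0144), Lrmda (0.0312) and Ankfy1 (0.0313) for Tcf12. Each likeness rests on 2 to 4 values.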

How the data were processed

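The files are the authors' peak and summit lists for 6 IP libraries. Peaks of the 2 input libraries by themselves were not analysed here. The submitters' processing notes name Subread, MACS2 and mm10, without versions; the names of the lists pair each IP library with its time's input, and the threshold for calling is not stated there. The deposited values are a linear fold ratio at the summit, which the values show to be IP fragments plus 1 over local background plus 1, −log10 p and −log10 q, and an integer score equal to 10 times the −log10 q rounded down. The lowest deposited −log10 q of a list was 1.58 to 2.90, which differs between lists.

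Members and gene lists were chosen with earlier results of these data known. Gene positions came from RefSeq genes on GRCm38.p6, and strand from the promoter table. Peaks of a time were merged where they overlapped by 1 bp or more, and a region needed 2 of 3 libraries. Fragments at a summit and its background were solved from fold and −log10 p, to within 0.001, for 100% of peaks. Times were compared with exact two-sided permutation tests (Python 3.11.15, SciPy 1.17.1); window counts and solving were tested on simulated data. By the rule for naming genes, the text names all members, every listed gene with a region of 2 libraries, and the 3 genes most like each such member. Outside it, the single-library peaks at Bmp6, Bmpr1a and Smad genes, the myogenic, Twist1, Msc and MEF2 genes without a peak, and the neighbouring genes Rrm2, Tpx2 and Gm42329 were named after their values were seen. The values of 1 listed gene are not reported here.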

Additional observations from a re-analysis of the deposited data

How the results depend on the processing

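The 34 h minus 14 h differences in members and in member peaks per library stayed positive under all 13 alternatives each. Without one library at a time they ran from 2.00 to 4.00 members and from 2.50 to 6.00 peaks (exact p from 0.1 to 0.3). With the replicate number as a block the exact sign-flip p was 0.25, the smallest that 3 pairs allow, at the same differences of 3.00 and 4.33. Same-numbered libraries correlated at 0.0455, 0.260 and 0.0825 over 428 regions found in all 6 libraries, so the numbers are not shown to pair them. Of the 3 libraries of 14 h, 2 correlated best with their own number at 34 h.

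Shares of all genes under the same setting follow each count. Member genes with a region in 2 libraries at 14 h (1) numbered 0 with lists of equal length (3.76%) or with all 3 libraries required (2.94%), and 2 with any library (6.96%); without one library the count ran from 0 to 1 (2.98% to 3.72%). At 34 h (4) they numbered 2 within 1 kb of start and end (7.29%), with lists of equal length (3.16%), or with all 3 libraries required (3.92%); without one library it ran from 2 to 4 (3.92% to 8.24%). The listed partner and pathway genes, set against the same shares, numbered 1 at 14 h (2) with equal lengths or all 3 libraries and 4 with any library, and 1 to 2 without one library. At 34 h (6) they numbered 1 with equal lengths, 3 with all 3 libraries and 18 with any library (19.1%), and 3 to 5 without one library. The cause was not tested beyond the looser or stricter rule itself. Every count covers called sites alone, none of which stood on fewer than 10 fragments.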
